A study of Homo sapiens with 32 samples.

Results

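The genes described here are 35 translation initiation factors outside the cap-binding pair eIF4E and eIF4G. They were taken by symbol and protein-coding type from the count tables of both lines, and all 35 were found among the 19815 protein-coding genes listed. All 35 also passed the filter on low counts, which kept 13510 genes in MDA-MB-231 and 13124 in MCF10A. They comprise EIF1, EIF1B and EIF1AX, the 3 subunits of eIF2, EIF2A and EIF2D, the 5 subunits of eIF2B, 12 subunits of eIF3, 5 genes of the eIF4A, eIF4B and eIF4H group, 4 genes of the eIF5 family, and EIF6. EIF3C is not among them.

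During initiation, eIF2 carries the initiator tRNA to the small ribosomal subunit as a complex with GTP, and eIF2B recharges eIF2 with GTP after each round. eIF3 is a large scaffold that binds the small subunit and joins it to the mRNA, eIF4A is the helicase that opens the 5′ leader with the help of eIF4B or eIF4H, and eIF5 and eIF5B govern GTP hydrolysis and the joining of the large subunit. The kinase mTOR is known for controlling translation of TOP mRNAs, which begin with a C followed by a run of pyrimidines and encode ribosomal proteins, elongation factors and several initiation factors.

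mRNA was measured by RNA-Seq in 32 libraries, from total RNA (T) and from polysomal RNA (P), the mRNA that sediments with several ribosomes in a sucrose gradient. The cells were MCF10A, a non-transformed human mammary epithelial line, and MDA-MB-231, a human triple-negative breast cancer line. Each line was kept in normoxia (N), in hypoxia at 0.5% O2 for 24 hours (H), in normoxia with PP242 (NPP) or in hypoxia with PP242 (HPP). PP242, an inhibitor of the mTOR kinase that competes with ATP, was given at 2.5 μM for 3 hours. Each of the 8 groups per line had 2 libraries, labelled as biological replicates, and the libraries held 18340916 to 46032327 counts. The libraries come from whole cultures, so a change in fewer cells and a smaller change in every cell cannot be told apart.

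The oxygen labels were borne out by CA9 and NDRG1, textbook targets of hypoxia. In MCF10A, CA9 had 7.72 to 26.9 CPM (counts scaled to a common library size) over 8 normoxic libraries, against 522 to 1356 over 8 hypoxic ones. In MDA-MB-231 it had 0.057 to 1.02 against 13.0 to 34.6 CPM. NDRG1 likewise did not overlap between normoxic and hypoxic libraries in either line. VEGFA, also induced by hypoxia, was at 6.28 to 35.7 against 43.4 to 229 CPM in MCF10A, while in MDA-MB-231 the normoxic libraries at 153 to 300.5 CPM overlapped the hypoxic ones at 228 to 433. The line labels were borne out in part. KRT5, a basal keratin, was at 1190.2 to 3268 CPM in MCF10A and at most 0.284 in MDA-MB-231. ZEB1, a mesenchymal transcription factor, was at 4.69 to 32.6 CPM in MCF10A and at 43.6 to 88.2 in MDA-MB-231. CDH1 and TP63, which mark epithelial and basal cells, were almost absent from the MCF10A libraries, at no more than 0.361 and 0.226 CPM, and VIM, a mesenchymal filament, was at 1691 CPM or more there.

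A set of 4 MCF10A libraries stood apart from the rest by a steeper fall of CPM with length, not by the size of the slope alone. Their CPM fell with transcript length, by slopes in log2 CPM per doubling of length of −0.502 in the second NPP total library, −0.310 in the first N polysomal library, −0.288 in the second HPP total library and −0.212 in the first H polysomal library. The other 12 MCF10A libraries had slopes of −0.0635 to 0.212, and the 16 MDA-MB-231 libraries had slopes of −0.146 to 0.116. The −0.212 of the first H polysomal library was matched in size by the 0.212 of the first NPP total library, which was kept. MCF10A Te values below are therefore followed by those without the 4 libraries where the libraries moved them most. An offset for transcript length in each library was also fitted, with the length of the Ensembl canonical transcript of each gene. Leaving the 4 libraries out gives 4 groups a single library. Slopes of the MDA-MB-231 polysomal libraries also differed by group within hypoxia, at −0.086 and −0.031 in H and 0.116 and 0.060 in HPP. In normoxia they were −0.087 and 0.041 in N and 0.042 and 0.0082 in NPP.

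The start of an mRNA bears on the comparison with PP242, so 30 bases around the annotated start (10 before it and 20 from it) were read from RefSeq on GRCh38.p14 for the 29 members with an entry. The windows below are written 5′ to 3′ on the gene's strand, and the 11th base is the annotated start. Capitals mark a C followed by at least 7 pyrimidines where one is present. The first 6 are members of eIF3 or carriers of initiator tRNA with a pyrimidine run at the start, shown because their polysomal changes range from the strongest fall to none. The last 7 are members without a run at the start, of which EIF3B, EIF2S1, EIF4A3 and EIF5B had a mean Te above 0 over the 4 PP242 comparisons and EIF1, EIF3J and EIF4A1 one below 0. The capitals of EIF3J mark a run that begins after the start and goes on past the window.
EIF3F, chr11:7987327-7987356, plus strand: cttccgCCTCCTTCTTTCTCgacaagatgg
EIF3K, chr19:38619178-38619207, plus strand: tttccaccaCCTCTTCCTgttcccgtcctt
EIF3M, chr11:32583821-32583850, plus strand: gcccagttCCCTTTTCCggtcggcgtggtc
EIF3D, chr22:36529147-36529176, minus strand: cgcatgtttCCTCTTTTCCTggtttctcaa
EIF2S3, chrX:24054946-24054975, plus strand: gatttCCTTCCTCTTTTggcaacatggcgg
EIF2A, chr3:150546777-150546806, plus strand: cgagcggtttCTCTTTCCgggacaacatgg
EIF3B, chr7:2354817-2354846, plus strand: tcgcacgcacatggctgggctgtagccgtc
EIF2S1, chr14:67360318-67360347, plus strand: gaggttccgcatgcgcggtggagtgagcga
EIF4A3, chr17:80147109-80147138, minus strand: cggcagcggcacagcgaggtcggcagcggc
EIF5B, chr2:99337379-99337408, plus strand: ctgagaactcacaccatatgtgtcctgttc
EIF1, chr17:41688875-41688904, plus strand: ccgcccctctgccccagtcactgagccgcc
EIF3J, chr15:44537137-44537166, plus strand: ccgccgtgctaactcctcgctagCTCTCCC
EIF4A1, chr17:7572815-7572844, plus strand: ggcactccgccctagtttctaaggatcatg

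PP242 lowered the polysomal mRNA of several eIF3 subunits in MDA-MB-231 cells, while eIF2B and the eIF5 family had no call in normoxia or within hypoxia by edgeR. In normoxia (NPP against N) 3 of the 35 members fell in polysomal RNA, EIF3F, EIF3H and EIF3L, against 1.19% of all tested genes called lower, and none rose, against 0.762% called higher. Within hypoxia (HPP against H) 7 fell, EIF3F, EIF3H, EIF3L, EIF3K, EIF3E, EIF3G and EIF2S3, against 6.62% of all genes, and 1 rose, EIF3A, against 4.86%. A call is an adjusted p under 0.05 in edgeR's quasi-likelihood test, adjusted by Benjamini-Hochberg over all tested genes, and fold changes are on the log2 scale with their SE. In MCF10A none of the members was called in polysomal RNA in normoxia by DESeq2, which called 347 of 12869 genes lower and 318 higher. By edgeR none was called either, with 5 at an unadjusted p under 0.05, as were 13.3% of all genes. Of all genes, edgeR called 0.351% lower and 0.472% higher. Within hypoxia 2 fell, EIF2S3 and EIF3J, against 3.87% of all genes, and none rose (2.63% of all genes did), and without the 4 libraries that stood apart EIF3H was called as well. With a replicate block within each fraction, added after the data were seen, the MCF10A calls in polysomal RNA were 1 in normoxia (EIF3F) and 9 within hypoxia, against 2.53% and 8.42% of all genes called lower. With the length offset they were 1 (EIF3E in place of EIF3F) and 7, against 2.85% and 7.91%. The MDA-MB-231 calls in normoxia were 6 with that block, beside 263 of 13510 genes lower, and 7 with the offset, beside 235 of 13449. DESeq2 called 7 lower there, beside 330 of 11676 genes.

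Counting libraries rather than calls, 18 of the 35 members had both NPP polysomal libraries below both N libraries in MDA-MB-231, where 20.9% of all genes did, and 12 did in MCF10A, where 22.1% of all genes did. For HPP against H the counts were 19 in MDA-MB-231 (28.2% of all genes) and 21 in MCF10A (25.4%). In normoxia and within hypoxia, the members' median polysomal change was −0.16 and −0.18 for MDA-MB-231 and −0.17 and −0.58 for MCF10A, beside medians of −0.04 to 0.0015 over all tested genes. A total of 25 members had a polysomal change below 0 in all 4 PP242 comparisons, and 2 members, EIF3B and EIF5, had one above 0 in all 4, beside 27.4% and 25.7% of the 12374 genes tested in both lines. Without the 4 MCF10A libraries that stood apart these counts were 16 and 2, beside 21% and 23.5% of genes. The MCF10A medians were then −0.013 and −0.28, beside 0.054 and 0.068 over all tested genes.

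Total RNA showed few calls. In normoxia none of the members was called in either line by edgeR, with 3 MCF10A and 2 MDA-MB-231 members at an unadjusted p under 0.05 (9.54% and 10.3% of all genes). Of all genes 0.178% were called lower and 0.377% higher in MDA-MB-231, and 0.305% and 0.343% in MCF10A. DESeq2 called 1 in MDA-MB-231, EIF4B, higher as were 1.24% of all genes, and 0 in MCF10A, where 2.64% of all genes were called. Within hypoxia EIF4B rose in MDA-MB-231 (1.7% of all genes called higher and 2.08% lower) and EIF3J fell in MCF10A (2.42% of all genes called lower and 1.33% higher).

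Subtracting the total RNA change from the polysomal one gives Te, for translational efficiency. Within hypoxia in MDA-MB-231, EIF3F alone of the 35 members had a called Te, and 0.622% of all tested genes were called lower. In normoxia no member had a called Te in MDA-MB-231 by edgeR, against 0.34% of all genes lower, with 8 members and 2.18% of all genes at an unadjusted p under 0.05, and DESeq2 called 3 in each comparison, EIF3F, EIF3H and EIF3L, against 6.09% and 1.28% of the genes to which it gave an adjusted p. In MCF10A no gene of the 13124 was called in Te by edgeR in either comparison (0% of all genes), with 7 and 10 members at an unadjusted p under 0.05 in normoxia and within hypoxia, beside 2.26% and 2.07% of all genes. DESeq2 called 2 there in normoxia, EIF3F and EIF3H, of 20 members with an adjusted p, where 9.88% of such genes were called lower. Within hypoxia it called 4 of 27, EIF2S3, EIF2A, EIF3E and EIF3H, against 4.82%. The members' median Te was −0.15 and −0.05 for MDA-MB-231, beside 0.02 and 0.04 over all tested genes, and −0.46 and −0.61 for MCF10A, beside −0.0052 and 0.09. Without the 4 MCF10A libraries that stood apart it was −0.02 and −0.21 in that line, and with the length offset −0.34 and −0.58. The MDA-MB-231 median ran from −0.25 to −0.068 in normoxia and from −0.23 to 0.069 within hypoxia with 1 library left out, above 0 without the first H library of either fraction. That of MCF10A ran from −0.68 to −0.15, the latter without the second NPP total library, and from −0.91 to −0.46.

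**Figure D1:**
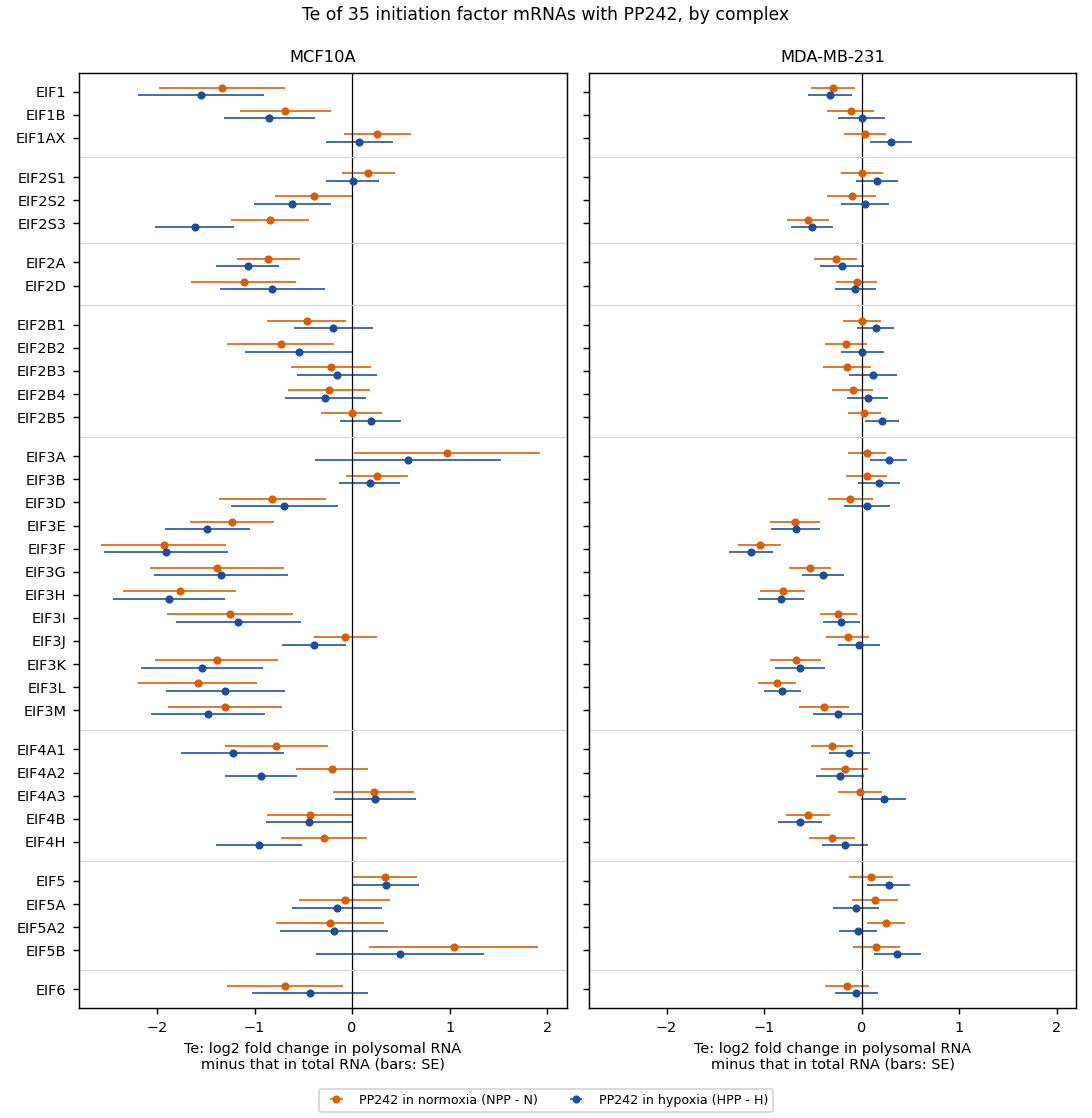
Te of the 35 members in each line, on the log2 scale (polysomal change less the change of total RNA), with its SE as the bar. Orange points are NPP minus N and blue points HPP minus H, grouped by complex. EIF3F lies lowest in MDA-MB-231, at −1.05 and −1.13, and the eIF2B and eIF5 members lie between −0.16 and 0.36 there.

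EIF3F (ENSG00000175390; chromosome 11, 7970251 to 8001862 on GRCh38) encodes an MPN-domain subunit of the eIF3 octamer and had the lowest mean Te of the 12 eIF3 subunits. In MDA-MB-231 its polysomal CPM was 442 and 379.9 in N, 210.0 and 234 in NPP, 383 and 312 in H, and 165 and 166 in HPP. Its total RNA CPM was 289.8 and 317 in N, 316 and 361 in NPP, 271 and 354 in H, and 323 and 329 in HPP. All 4 polysomal libraries with PP242 lay below all 4 without it, while the total RNA libraries overlapped in both comparisons. The polysomal change was −0.89 (SE 0.16, adjusted p = 0.00676) in normoxia and −1.07 (SE 0.16, adjusted p = 0.00078) within hypoxia by edgeR. Its Te was −1.05 (SE 0.22, adjusted p = 0.063) in normoxia and −1.13 within hypoxia (SE 0.22, 95% interval −1.61 to −0.66, adjusted p = 0.0283). The polysomal call within hypoxia held with each library left out in turn. The normoxic polysomal call was lost without either first replicate (N or NPP). The Te call was lost on leaving out any library but the second H polysomal or the second H total one. With a culture block, which takes the total and polysomal libraries of 1 title number as 1 culture, it was −1.14 with an adjusted p of 0.107 by edgeR and was not called. The study describes total and polysomal RNA as fractions of each sample, and the titles give both the same number.

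In MCF10A the polysomal CPM of EIF3F was 385 and 226 in N, 132 and 134 in NPP, 263 and 192 in H, and 103.9 and 57.2 in HPP. Its total RNA CPM was 239 and 246 in N, 247 and 559 in NPP, 207 and 311 in H, and 245 and 443 in HPP. The polysomal libraries with PP242 again lay below those without it, and the 559 and 443 came from the total libraries with steep length slopes. The polysomal change was −1.20 (SE 0.45, adjusted p = 0.26) in normoxia and −1.50 (SE 0.46, adjusted p = 0.0791) within hypoxia by edgeR, and neither was called, while DESeq2 called the latter. The polysomal changes were −0.75 and −1.25 without the 4 libraries that stood apart, and its Te of −1.93 and −1.91 became −0.79 and −1.16. The length offset moved EIF3F the other way, to polysomal changes of −1.40 and −1.66 and a Te of −2.86 and −2.39. The canonical transcript used for its length has 6920 bases.

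EIF3H, the other MPN subunit among the members, and EIF3L, a PCI-domain subunit of the octamer, moved like EIF3F in MDA-MB-231. EIF3H polysomal CPM there was 541 and 483 in N, 302 and 315 in NPP, 484 and 378 in H, and 225 and 249.5 in HPP. The polysomal CPM of EIF3L was 262 and 261 in N, 151 and 172 in NPP, 242 and 199.8 in H, and 129 and 134 in HPP. For each gene, every polysomal library with PP242 was below every one without it. The polysomal changes of EIF3H were −0.73 (SE 0.17, adjusted p = 0.0331) and −0.86 (SE 0.17, adjusted p = 0.00469), in normoxia and within hypoxia, by edgeR. Those of EIF3L were −0.69 (SE 0.14, adjusted p = 0.0151) and −0.75 (SE 0.14, adjusted p = 0.00354). The normoxic calls of EIF3H and EIF3L were each lost with any 1 library left out, and the calls within hypoxia were lost only without the first HPP polysomal library. Total RNA of EIF3L was 221 to 270.1 CPM over the 8 MDA-MB-231 libraries. The Te of EIF3H was −0.81 and −0.83 and that of EIF3L −0.87 and −0.81, none of them called by edgeR.

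EIF3K and EIF3E, PCI subunits, and EIF3G, an RNA-binding subunit of the core, were called within hypoxia in MDA-MB-231. EIF3K polysomal CPM was 280.3 and 232 in H and 145 and 140.1 in HPP, a change of −0.85 (SE 0.18, adjusted p = 0.00904). EIF3E went from 688 and 510.0 to 359 and 360.3 CPM, a change of −0.74 (SE 0.18, adjusted p = 0.0169). EIF3G went from 324 and 273 to 196 and 210.4 CPM, a change of −0.55 (SE 0.15, adjusted p = 0.0308). The HPP and H libraries did not overlap for any of these genes, and each of the 3 calls was kept in only 1 of the 4 fits that left out a library. In normoxia their changes of −0.61, −0.57 and −0.50 were not called by edgeR, while DESeq2 called all 3. EIF3M, also a PCI subunit, and EIF3I, a WD-repeat subunit of the core, had polysomal changes of −0.50 and −0.35 within hypoxia, which DESeq2 called and edgeR did not. The Te of EIF3K in MDA-MB-231 was −0.68 and −0.63, that of EIF3E −0.68 in each comparison, that of EIF3G −0.54 and −0.39, that of EIF3M −0.39 and −0.24 and that of EIF3I −0.24 and −0.21.

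The MCF10A Te of these subunits moved with the 4 libraries that stood apart, above all in normoxia. The values below are for normoxia and then for hypoxia. EIF3G had −1.39 and −1.34 with all libraries and 0.14 and −0.43 without the 4, and EIF3I had −1.25 and −1.17, then 0.10 and −0.44. EIF3K went from −1.39 and −1.54 to −0.066 and −0.78, and EIF3M from −1.30 and −1.48 to −0.097 and −0.81. EIF3H kept −0.79 and −1.24 of −1.77 and −1.88, EIF3E −0.71 and −1.05 of −1.23 and −1.48, and EIF3L −0.67 and −0.64 of −1.58 and −1.30. Of the 35 members, 15 had a Te of the other sign in normoxia without the 4 libraries, and 9 did within hypoxia. The length offset turned 7 and 4, and neither EIF3G, at −0.72 and −0.84, nor EIF3I, at −0.74 in normoxia and −0.84 within hypoxia, was among them. With the offset EIF3H had −2.13 and −2.10 and EIF3M −1.94 and −1.84, further below 0 than without it. EIF3K had −0.62 and −0.90, EIF3E −1.04 and −1.35 and EIF3L −1.52 and −1.29, nearer to 0 than without it.

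EIF3A, the largest eIF3 subunit and the backbone of the octamer, went the other way in MDA-MB-231. Its polysomal CPM there was 342 and 403 in N, 428 and 447 in NPP, 292 and 292 in H, and 414 and 406 in HPP. Both HPP libraries were above both H libraries, by 0.49 (SE 0.14, adjusted p = 0.0341), and the call was lost with any 1 of those 4 libraries left out. Total RNA was 433 and 423 in N, 464 and 502 in NPP, 422 and 352 in H and 483 and 416 in HPP, the last pairs overlapping, and the Te of 0.27 (SE 0.19) was not called. The H and HPP polysomal libraries differed in length slope, as given above. EIF3A has a canonical transcript of 6659 bases, beside 6920 for EIF3F and 772 for EIF3K, which both fell. How far its rise goes with length was not tested. In MCF10A the polysomal CPM of EIF3A was 76.6 and 205 in N, 182 and 152 in NPP, 95.6 and 139 in H, and 73.1 and 80.1 in HPP. There both HPP libraries lay below both H libraries, with a change of −0.61 (SE 0.68) that was not called, and of −0.84 without the 4 libraries that stood apart. Its total RNA in MCF10A was 207 and 172 CPM in N, 192 and 37.1 in NPP, 182 and 100.8 in H, and 88.6 and 35.5 in HPP, lowest in the second NPP and HPP libraries, and its Te of 0.97 and 0.57 became −0.32 and −0.17 without the 4 libraries that stood apart.

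The remaining eIF3 subunits had small polysomal changes or moved in total RNA as well. EIF3B, the core scaffold with WD repeats, had polysomal changes of 0.29, 0.08, 0.07 and 0.10 and EIF3D, a cap-binding subunit at the edge of the complex, −0.02, −0.25, −0.05 and 0.09, in the order MCF10A normoxia, MCF10A hypoxia, MDA-MB-231 normoxia and MDA-MB-231 hypoxia. The MCF10A total RNA of EIF3D changed by 0.80 and 0.44, with no call, so that its Te was −0.82 (SE 0.55) and −0.69 (SE 0.55), or 0.12 and −0.20 without the 4 libraries that stood apart. EIF3J, a loosely bound subunit near the decoding site, fell in MCF10A polysomal RNA within hypoxia, from 105.9 and 104.3 CPM to 45.5 and 35.8 (−1.37, SE 0.23, adjusted p = 0.00733). It fell in total RNA there too, from 74.9 and 76.4 to 41.1 and 35.7 CPM (−0.98, SE 0.23, adjusted p = 0.0395), so that its Te was −0.39 (SE 0.33). Both calls were lost in the fit to only the groups compared. The polysomal call held in 3 of the 4 fits that left out a library, the exception being the one without the second HPP library, and the call in total RNA was lost in each such fit. Over the complex, 9 of the 12 eIF3 members had a Te below 0 in all 4 comparisons, beside 17.8% of the 12374 genes tested in both lines. The count was 7 when the MCF10A values left out the 4 libraries that stood apart, beside 9.99% of 12515 genes. The median Te of the eIF3 members was −0.46 and −0.32 for MDA-MB-231 and −1.28 and −1.32 for MCF10A. Without the 4 libraries that stood apart, 8 and 11 of the 12 were below 0 in MCF10A, with medians of −0.21 and −0.55.

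**Figure D2:**
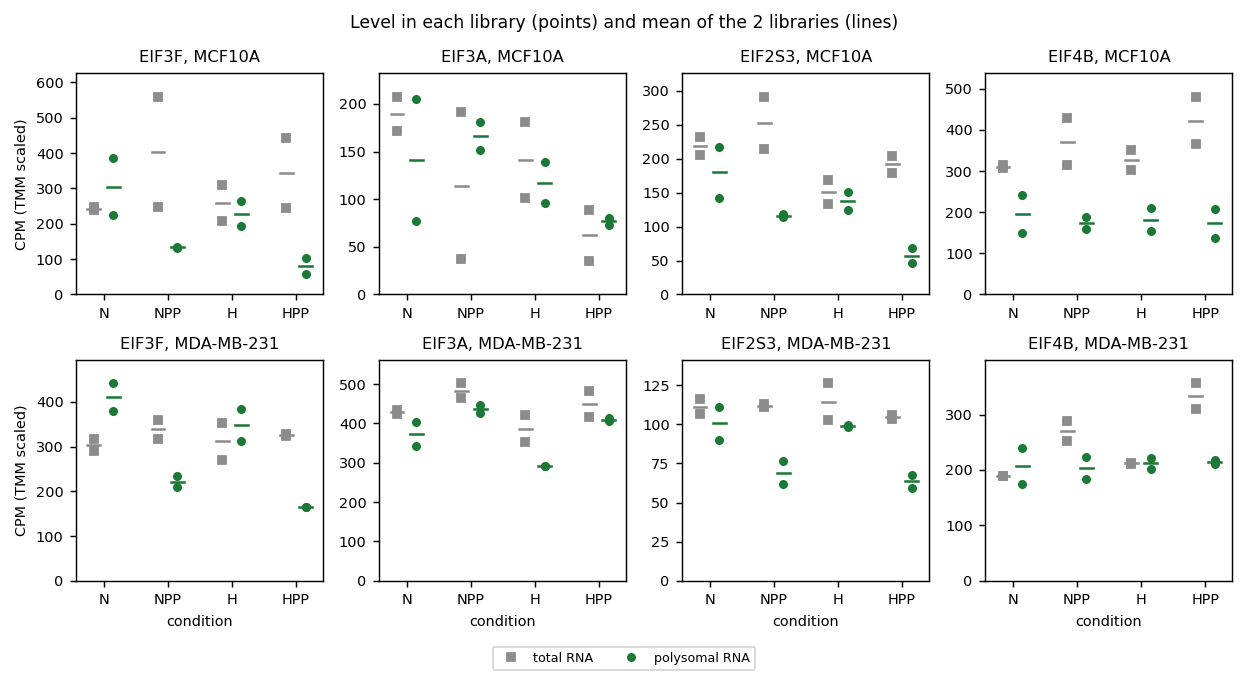
CPM in each library for EIF3F, EIF3A, EIF2S3 and EIF4B in both lines, with grey squares for total RNA, green circles for polysomal RNA and short lines for the mean of 2 libraries. In MDA-MB-231 the polysomal CPM of EIF3F falls with PP242 from 312 to 442 down to 165 to 234, while the total RNA of EIF4B rises.

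Within eIF2, the subunits differed in these values. EIF2S3 (ENSG00000130741; chromosome X, 24054946 to 24078810 on GRCh38) encodes the gamma subunit, which binds GTP and the initiator tRNA. Its polysomal CPM in MDA-MB-231 was 90.3 and 111.4 in N, 62.0 and 76.4 in NPP, 98.1 and 99.9 in H, and 59.2 and 67.7 in HPP. Its polysomal CPM in MCF10A was 142 and 217 in N, 118 and 114 in NPP, 124 and 151 in H, and 68.0 and 46.3 in HPP. In both lines every polysomal library with PP242 was below every one without it. The fall within hypoxia was −0.64 (SE 0.15, adjusted p = 0.0145) in MDA-MB-231 and −1.27 (SE 0.29, adjusted p = 0.0245) in MCF10A by edgeR, and each call was kept in only 1 of the 4 fits that left out a library. The MCF10A call was also lost in the fit to only the groups compared. In normoxia the changes of −0.54 (adjusted p = 0.0937) and −0.63 (adjusted p = 0.37) were not called by edgeR, and DESeq2 called the first.

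Total RNA of EIF2S3 was 106.8 and 116 CPM in N, 112.8 and 111.3 in NPP, 102.6 and 126 in H, and 103.4 and 105.9 in HPP in MDA-MB-231, a narrow range. The MCF10A total RNA was 231 and 205 in N, 291 and 214 in NPP, 169 and 133 in H, and 204 and 179 in HPP. Its Te was −0.55 and −0.51 (SE 0.21) in MDA-MB-231 and −0.84 and −1.61 (SE 0.40) in MCF10A, not called in any of the 4 by edgeR and called by DESeq2 in MCF10A within hypoxia. Without the 4 libraries that stood apart, the MCF10A values were −1.32 and −1.83. EIF2S1, the alpha subunit that the stress kinases phosphorylate, had polysomal CPM in MDA-MB-231 of 301 and 303 in N, 253 and 275 in NPP, 281 and 227 in H, and 213 and 229 in HPP. In MCF10A it was 146 and 150.3 in N, 145 and 119 in NPP, 114 and 121 in H, and 79.6 and 83.4 in HPP. Its total RNA also lay lower with PP242, without a call, at 205 and 211 against 224 and 251 CPM in normoxia in MDA-MB-231 and at 100.6 and 93.7 against 123 and 122 in MCF10A. Within hypoxia total RNA was 202 and 255 in H and 194 and 164 in HPP in MDA-MB-231, and 98.4 and 96.5 against 72.9 and 61.6 in MCF10A, where DESeq2 called the fall and edgeR did not. Its Te was 0.17, 0.0051, −0.00068 and 0.15 in the 4 comparisons. EIF2S2, the beta subunit, had a Te of −0.39, −0.61, −0.10 and 0.03, in the same order of comparisons as above, and the MCF10A values became 0.18 and −0.19 without the 4 libraries. The difference between subunits was not tested.

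EIF2A and EIF2D, factors outside the eIF2 complex that can deliver initiator tRNA without it, had polysomal changes that were not called in either line for NPP against N or for HPP against H. The Te of EIF2A was −0.86 and −1.07 (SE 0.33) in MCF10A, the latter called by DESeq2 alone, and −0.27 and −0.20 (SE 0.22) in MDA-MB-231. That of EIF2D was −1.11 and −0.82 (SE 0.54) and −0.05 and −0.07. The MCF10A values became −0.58 and −0.79 for EIF2A and −0.022 and −0.33 for EIF2D without the 4 libraries that stood apart.

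For NPP against N and for HPP against H, the eIF2B subunits had no call in either fraction or line. EIF2B5, the catalytic epsilon subunit, had polysomal CPM in MDA-MB-231 of 129 and 126 in N, 119 and 123 in NPP, 114 and 97.5 in H, and 106.6 and 100.8 in HPP. In MCF10A it was 74.6 and 61.7 in N, 80.9 and 69.4 in NPP, 50.1 and 44.8 in H, and 58.0 and 54.5 in HPP. EIF2B2, the beta subunit of the regulatory part, had polysomal CPM in MDA-MB-231 of 104.96 and 103.6 in N, 85.7 and 97.2 in NPP, 126 and 101.1 in H, and 99.1 and 103.1 in HPP. Total RNA of EIF2B5 was 118 and 131 CPM in N, 115 and 118 in NPP, 104.5 and 114 in H, and 94.8 and 90.7 in HPP in MDA-MB-231, and 51.4 and 54.7, 48.5 and 68.9, 40.4 and 40.9, and 40.6 and 43.8 for the same groups of MCF10A. Total RNA of EIF2B2 in MDA-MB-231 was 71.2 and 82.9 in N, 67.7 and 83.3 in NPP, 83.7 and 101.7 in H, and 82.2 and 82.1 in HPP. The HPP and H libraries of EIF2B2 overlapped in MDA-MB-231 polysomal RNA. These polysomal changes were −0.07 and −0.03 (SE 0.12) for EIF2B5 and −0.19 and −0.17 (SE 0.15) for EIF2B2 in MDA-MB-231. In MCF10A EIF2B2 polysomal CPM was 62.0 and 48.0 in N, 50.1 and 49.4 in NPP, 49.0 and 43.5 in H, and 33.3 and 34.4 in HPP. Its MCF10A total RNA was 29.3 and 31.8 CPM in N, 25.7 and 66.2 in NPP, 25.8 and 34.3 in H, and 23.5 and 40.7 in HPP, and its Te of −0.73 and −0.55 became 0.30 and 0.0089 without the 4 libraries that stood apart. EIF2B1, EIF2B3 and EIF2B4 (the alpha, gamma and delta subunits) had Te of −0.46 to −0.16 in MCF10A and of −0.16 to 0.14 in MDA-MB-231. Without the 4 libraries, none of the 5 eIF2B subunits had a Te below 0 in MCF10A.

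Among the helicase genes, EIF4A1, the main helicase of the cap-binding complex, had polysomal CPM in MDA-MB-231 of 2511 and 2292 in N, 1891 and 1949 in NPP, 2166 and 1746 in H, and 1489 and 1525 in HPP. In MCF10A it was 3181 and 2460.1 in N, 2483 and 2206 in NPP, 2496 and 2048 in H, and 1281 and 1067 in HPP. The HPP libraries lay below the H libraries in each line, and none of the 4 changes was called by edgeR or DESeq2 (−0.27, −0.95, −0.32 and −0.38, in the order above). Total RNA of EIF4A1 in MDA-MB-231 was 1688 and 1804 CPM in N, 1662 and 1786 in NPP, 1484 and 1938 in H, and 1477 and 1402 in HPP. The MCF10A total RNA of EIF4A1 was 1700.3 and 1721 in N, 1570.1 and 3299 in NPP, 1347 and 1724 in H, and 1379.7 and 2320.4 in HPP, highest in the second NPP and HPP libraries. Without the 4 libraries its polysomal changes in MCF10A were −0.061 and −0.79, and its Te there of −0.78 and −1.22 became 0.051 and −0.63. EIF4A3, the related helicase of the exon junction complex, had polysomal CPM in MDA-MB-231 of 346 and 317 in N, 321 and 344 in NPP, 331 and 260.3 in H, and 308 and 310.1 in HPP. In MCF10A it was 268 and 212 in N, 306 and 204 in NPP, 220.2 and 194 in H, and 168 and 212 in HPP. Total RNA of EIF4A3 was 225 and 247 CPM in N, 213 and 266 in NPP, 219 and 268 in H, and 236 and 199.5 in HPP in MDA-MB-231. For MCF10A it was 158 and 139.5 in N, 109.7 and 161 in NPP, 118 and 142 in H, and 83.9 and 119 in HPP. The polysomal groups overlapped in both lines, and the polysomal changes of EIF4A3 were 0.09, −0.12, 0.00093 and 0.06. EIF4A2, the close relative of EIF4A1, had Te of −0.21, −0.93, −0.18 and −0.22, and EIF4H, an eIF4A cofactor, −0.29, −0.96, −0.30 and −0.17, none called. Leaving out the 4 libraries that stood apart, the MCF10A Te of EIF4A2 was −0.44 and −0.69 and that of EIF4H −0.41 and −1.02.

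EIF4B (ENSG00000063046; chromosome 12, 53006282 to 53042215 on GRCh38), the cofactor that stimulates eIF4A, rose in the total RNA of MDA-MB-231 within hypoxia, while its polysomal change was not called. Its total CPM was 189 and 189 in N, 253 and 288 in NPP, 211 and 212 in H, and 309.7 and 356 in HPP. Its polysomal CPM was 175 and 239.7 in N, 183 and 223 in NPP, 202 and 221 in H, and 217 and 211 in HPP. All 4 total libraries with PP242 were above all 4 without it, while the polysomal libraries overlapped. The change in total RNA was 0.65 within hypoxia (SE 0.16, adjusted p = 0.0354) and 0.52 in normoxia (SE 0.16, adjusted p = 0.21), the latter not called by edgeR. The call within hypoxia was kept without the first H total library, and was lost in the other 3 fits that left out a library and in the fit to only the groups compared. The Te of −0.55 and −0.64 (SE 0.22) was not called. In MCF10A its total CPM was 307 and 315 in N, 429 and 313 in NPP, 349.9 and 304 in H, and 480.0 and 365 in HPP, and its Te was −0.43 and −0.45 (SE 0.44), or −0.95 and −0.82 without the 4 libraries that stood apart.

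The eIF5 family had no call with PP242 in normoxia or within hypoxia by edgeR. EIF5B, the GTPase of subunit joining, had polysomal CPM in MDA-MB-231 of 198 and 189.9 in N, 208 and 197 in NPP, 185 and 143 in H, and 176 and 185 in HPP. In MCF10A it was 121 and 135 in N, 185 and 178 in NPP, 101.997 and 104.2 in H, and 91.3 and 108.9 in HPP. Its total RNA in MDA-MB-231 was 199.6 and 189.5 CPM in N, 197 and 169.7 in NPP, 186 and 188 in H, and 189.7 and 130.4 in HPP. Its MCF10A total RNA was 117 and 94.0 in N, 121 and 23.6 in NPP, 93.4 and 68.8 in H, and 84.9 and 27.0 in HPP, lowest in the second NPP and HPP libraries, and its Te of 1.04 in normoxia and 0.49 within hypoxia became 0.22 and −0.11 without the 4 libraries that stood apart. With 1 library left out the normoxia value ran from 0.29 to 2.67. EIF5A2, the less abundant form of the hypusinated factor eIF5A, had polysomal CPM in MDA-MB-231 of 40.7 and 36.2 in N, 32.4 and 37.6 in NPP, 37.8 and 45.5 in H, and 34.8 and 36.1 in HPP. In MCF10A it was 9.57 and 10.8 in N, 6.28 and 5.60 in NPP, 10.7 and 7.34 in H, and 7.41 and 4.67 in HPP. Total RNA of EIF5A2 was 52.4 and 53.1 CPM in N, 39.7 and 41.1 in NPP, 46.2 and 50.4 in H, and 44.1 and 40.4 in HPP in MDA-MB-231, lower in both PP242 groups without overlap. The MCF10A total RNA of EIF5A2 was 17.0 and 13.4 in N, 14.0 and 6.74 in NPP, 12.7 and 9.79 in H, and 10.8 and 6.35 in HPP.

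The GTPase activator EIF5 had 291 and 299 polysomal CPM in H and 444 and 394 in HPP in MDA-MB-231, without overlap, and the change of 0.51 (SE 0.16) had an adjusted p of 0.0502 by edgeR and was called by DESeq2. EIF5A had Te between −0.15 and 0.14 in the 4 comparisons, and 0.48 and 0.35 in MCF10A without the 4 libraries. EIF6, which keeps the large subunit from joining too early, had Te of −0.69, −0.43, −0.15 and −0.05, and the MCF10A values turned to 0.58 and 0.21 without the 4 libraries. EIF1, which guards the choice of start codon, had Te of −1.33 and −1.55 (SE 0.65) in MCF10A and −0.30 and −0.32 (SE 0.22) in MDA-MB-231, and in MCF10A its total RNA was 1869 and 2028 CPM in the second NPP and HPP libraries beside 602 to 1075 in the other 6. The MCF10A Te of EIF1 was −0.44 and −0.40 without the 4 libraries. Its relative EIF1B and EIF1AX, the gene of eIF1A, had Te of −0.69 and 0.26 in MCF10A in normoxia, or −0.17 and −0.035 without the 4 libraries, and of −0.85 and 0.07 within hypoxia, or −0.046 and 0.062. They lay between −0.11 and 0.30 in MDA-MB-231.

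The comparisons of PP242 in normoxia and within hypoxia share no library, and over the 35 members their values were similar in order. For Te, Pearson's r across members was 0.943 for MDA-MB-231 and 0.925 for MCF10A, and between the lines it was 0.803 in normoxia and 0.855 within hypoxia. For the polysomal change alone r was 0.929 and 0.825 within the lines and 0.882 and 0.830 between them. Without the 4 MCF10A libraries that stood apart, r for Te was 0.85 within MCF10A and 0.576 and 0.777 between the lines, and r for the polysomal change was 0.779 within MCF10A and 0.653 and 0.659 between the lines. Genes are not independent replicates and members of a comparison share their libraries, so these are descriptions.

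**Figure D3:**
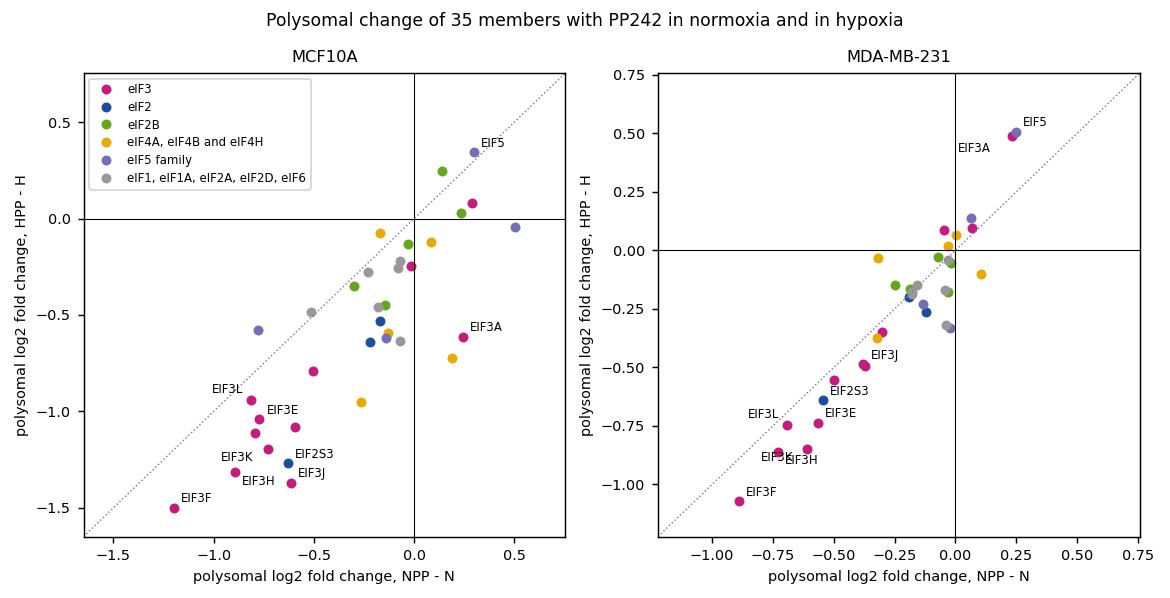
Polysomal log2 fold change of the 35 members in normoxia (NPP minus N, horizontal axis) against that within hypoxia (HPP minus H, vertical axis), for each line, coloured by complex, with a dotted line where both are equal. Several eIF3 subunits lie at the lower left in both panels, with EIF3F at −0.89 and −1.07 in MDA-MB-231.

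Hypoxia alone (H against N) called no member in polysomal or total RNA or in Te in either line by edgeR with the settings used for the other comparisons. Of all genes, 0.511% fell and 1.78% rose in MDA-MB-231 polysomal RNA, and 0.16% and 1.33% in that of MCF10A. In total RNA 0.289% and 0.977% of all genes were called lower and higher in MDA-MB-231 and 0.145% and 1.39% in MCF10A, and in Te 0.0074% each way in the first line and 0% in the second. Unadjusted p values under 0.05 were seen for 7 MDA-MB-231 and 6 MCF10A members in polysomal RNA (17.2% and 12.5% of all genes), for 0 and 1 in total RNA (12.7% and 10.9%), and for 0 in Te in each line (1.33% and 0.175%). DESeq2 called 0 members lower and 1 higher, EIF4A2, in polysomal RNA in MCF10A, where 1.3% of all genes were called lower and 2.94% higher, and 2 lower in MDA-MB-231, EIF2A and EIF2B3, against 2.08% of all genes. With the length offset edgeR called 4 members lower in MDA-MB-231 polysomal RNA, EIF2B3, EIF3G, EIF3K and EIF6, against 2.04% of all genes, and EIF2B3 alone in MCF10A, in polysomal (2.12% of all genes lower) and total RNA (1.3%). The replicate block within each fraction called EIF2B3 lower in MDA-MB-231 polysomal RNA, against 1.33% of all genes. The members' median polysomal change was −0.24 for MDA-MB-231 and −0.36 for MCF10A, beside 0.0055 and −0.067 over all genes.

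With hypoxia and PP242 together (HPP against N), 15 members fell in MDA-MB-231 polysomal RNA, against 9.73% of all genes called lower, and 14 fell in MCF10A, against 11.9%. None rose in either line, where 9.71% and 10.2% of all genes were called higher. These comparisons share their N or HPP libraries with those above. In MDA-MB-231 the 15 comprised 9 eIF3 subunits, among them EIF3F at −1.31 (SE 0.16, adjusted p = 7.95e-05), EIF3H at −1.11, EIF3K at −1.08 and EIF3L at −0.99, with EIF2S3 at −0.67, EIF2A at −0.63, EIF2D at −0.45, EIF2B1 at −0.41, EIF2B3 at −0.65 and EIF4A1 at −0.67. In MCF10A they comprised 8 eIF3 subunits, among them EIF3H at −1.94, EIF3F at −1.92, EIF3M at −1.84 and EIF3J at −1.69, all 3 eIF2 subunits (EIF2S3 at −1.65, EIF2S2 at −1.22 and EIF2S1 at −0.86), EIF2A at −0.84, EIF4A1 at −1.26 and EIF5A at −1.06. The MCF10A count was 3 without the first N polysomal library or without the second HPP one, where 4.43% and 3.6% of all genes were called lower. Without the 4 libraries that stood apart it was 13, against 14% of all genes, of which 12 were shared, with EIF2A and EIF5A lost (adjusted p = 0.0617 and 0.0619) and EIF3A gained (−1.41, adjusted p = 0.011 by edgeR). The MDA-MB-231 count ran from 6 to 11 with 1 library left out, against 2.59% to 6.1% of all genes.

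For HPP against N, Te was called lower for EIF3F (−1.42, SE 0.22, adjusted p = 0.00439), EIF3L (−1.09, adjusted p = 0.0105) and EIF3H (−1.12, adjusted p = 0.039) in MDA-MB-231, against 0.696% of all genes. The EIF3F call was kept with each library left out in turn, that of EIF3L in 5 of 8 such fits and that of EIF3H in 1 of 8, and with the culture block only EIF3F was called. In MCF10A 0 members were called in Te by edgeR, where 0% of all genes were, with 13 members and 3.3% of all genes at an unadjusted p under 0.05. DESeq2 called 5 of 33 there, against 2.69% of genes with an adjusted p, and edgeR with the replicate block within each fraction called 4, against 0.762%. In total RNA, EIF2S1 (−0.87) and EIF3J (−1.24) fell in MCF10A, against 7.47% of all genes called lower and 7.43% higher. The replicate block within each fraction gave 7 members there and the length offset 6, where 26.5% and 26.6% of all genes were called in either direction. In MDA-MB-231, EIF1AX (−0.54), EIF2B1 (−0.47) and EIF2B5 (−0.42) fell, against 6.91%, and EIF4B rose (0.82, SE 0.16, adjusted p = 0.00489), against 6.31% called higher. Of these calls EIF4B was kept with each library left out in turn and EIF3J in 3 of 4 such fits, and the others were lost in each.

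Before treatment, polysomal against total RNA in normoxia was compared for the members of each line. In MDA-MB-231, EIF3K (0.82), EIF4H (0.74), EIF3G (0.59), EIF3I (0.55) and EIF6 (0.55) were higher in polysomal RNA, against 4.42% of all genes called higher, and EIF5A2 was lower (−0.46), against 8.64%. Leaving out the first N total library ended all 6 calls, leaving out the second N total or the first N polysomal one left EIF4H alone, and leaving out the second N polysomal one gave 5, with EIF2B3 and without EIF4H and EIF5A2. The count ran from 0 to 19 over the other settings. In MCF10A none was called by edgeR, where 0% of all genes were, with 10 at an unadjusted p under 0.05, as were 12.6% of all genes. DESeq2 called none of the 29 members to which it gave an adjusted p. Of the 2946 such genes it called 22 lower and 18 higher. With the replicate block within each fraction edgeR called 12 members, all higher, and 12.7% of all genes were called higher and 3.97% lower.

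The pyrimidine runs at the start were then set beside Te. A C at the annotated start followed by at least 4 C or T bases, on the gene's strand alone, was present in 9 of the 29 members with a window (31%): EIF2S3, EIF2A, EIF2D, EIF3D, EIF3F, EIF3K, EIF3M, EIF4A2 and EIF4B. Among all 15843 protein-coding genes with a window 6.24% had it, and among 62 ribosomal protein genes 74.2%. A longer run, a C followed by at least 7 C or T beginning within 20 bases of the start, was in 41.4% of the members and in 20% of all genes. These runs can overlap the shorter ones. Of the 7 eIF3 members with a window, 4 had the run at the start. The members without an entry were EIF2S2, EIF3A, EIF3E, EIF3G, EIF3H and EIF3L.

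The 9 members with a run at the start had a median Te of −0.39 and −0.24 in MDA-MB-231, in normoxia and within hypoxia, and of −0.86 and −1.07 in MCF10A. The 20 members without it had −0.06, 0.03, −0.22 and −0.19. Without the 4 MCF10A libraries that stood apart, the medians in that line were −0.44 and −0.79 with the run and 0.16 and 0.04 without it. The values overlapped: in MDA-MB-231 within hypoxia, members with the run lay between −1.13 (EIF3F) and 0.06 (EIF3D), and those without it between −0.32 (EIF1) and 0.36 (EIF5B). EIF3F and EIF3D, printed above, both carry the run and had polysomal changes of −1.07 and 0.09 in that comparison. For the polysomal change in MDA-MB-231 the medians were −0.16 with the run and −0.10 without it in normoxia, and −0.15 and −0.17 within hypoxia. In MCF10A they were −0.52 and −0.11 in normoxia and −0.72 and −0.40 within hypoxia, or −0.087 and 0.067, then −0.56 and −0.068, without the 4 libraries. A run in these windows is a description of the annotated start, and the starts used in these cells were not measured.

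**Figure D4:**
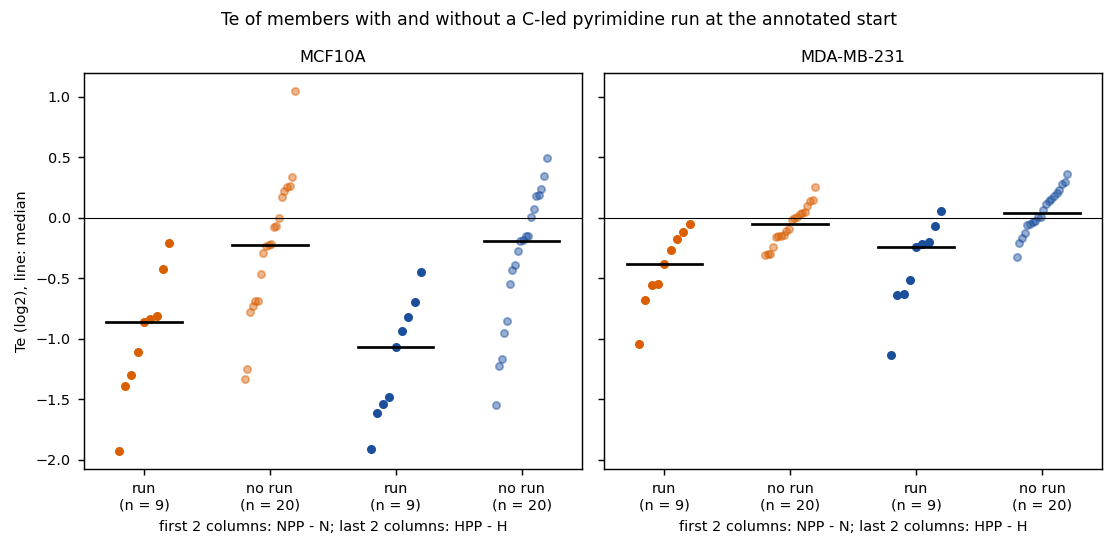
Te of the 29 members with a RefSeq window, split by whether the annotated start is a C followed by at least 4 pyrimidines (9 members) or not (20 members), for each PP242 comparison and line, with lines at the medians. The medians lie lower with the run in all 4 comparisons (−0.39 against −0.06 in MDA-MB-231 in normoxia), and the values of the 2 sets overlap.

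Other genes of the translation pathway were taken from lists of TOP mRNAs, elongation factors and regulators. Of 80 ribosomal protein genes tested, 75 fell in the polysomal RNA of MDA-MB-231 in normoxia and 78 within hypoxia, with a median Te of −1.42 and −1.70. In MCF10A 0 of the 80 were called in normoxia by edgeR, with 71 at an unadjusted p under 0.05, and 43 fell within hypoxia, or 6 and 54 without the 4 libraries that stood apart, where 0.976% and 5.56% of all genes were called lower. Of 12 factors of elongation, termination and recycling, 5 and 7 fell in MDA-MB-231, with a median Te of −0.41 in each comparison. Of the 11 tested in MCF10A, 0 fell in normoxia by edgeR (7 at an unadjusted p under 0.05) and 3 within hypoxia, with a median Te of −1.84 and −1.51. Without the 4 libraries that stood apart the counts were 0 and 8 and the medians −0.37 and −0.76. EEF1A1, which brings aminoacyl-tRNA to the ribosome, had polysomal changes of −1.19 (adjusted p = 0.00062) and −1.44 (adjusted p = 4.69e-05) by edgeR in MDA-MB-231, and TPT1, a classic TOP mRNA, −1.93 (adjusted p = 5.28e-05) and −2.32 (adjusted p = 4.1e-06). Of 9 other TOP mRNAs tested, 4 and 7 fell in MDA-MB-231. In MCF10A 0 fell in normoxia, with 7 at an unadjusted p under 0.05, and 3 within hypoxia by edgeR, or 0 and 4 without the 4 libraries. The eIF3 median Te of −0.46 and −0.32 was the lowest of the member groups in MDA-MB-231. In MCF10A without the 4 libraries that stood apart, the group of eIF4A, eIF4B and eIF4H had −0.41 and −0.69 and that of eIF2A and eIF2D −0.30 and −0.56, beside −0.21 and −0.55 for eIF3.

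The regulators of eIF2 and eIF4F had few calls. Of 8 genes around eIF2 phosphorylation (4 kinases, 2 phosphatase subunits, the kinase inhibitor IMPACT and the downstream factor ATF4), 1 rose in polysomal RNA in all 4 PP242 comparisons, PPP1R15A, the stress-induced subunit that directs a phosphatase to eIF2. PPP1R15A lay outside the rule for naming genes and was singled out after its values were seen, and its change was 1.57 (adjusted p = 0.0257) in normoxia and 1.48 (adjusted p = 0.0118) within hypoxia in MDA-MB-231 by edgeR. Its total RNA moved with it, by 1.49 (adjusted p = 0.0729) and 1.34 (adjusted p = 0.0393). In MCF10A the changes were 1.93 and 3.28 in polysomal RNA and 2.02 and 2.91 in total RNA, all called by edgeR. The Te of PPP1R15A was between −0.09 and 0.37 in the 4 comparisons, and none was called. In MCF10A without the 4 libraries that stood apart, the 8 genes had a median polysomal change of 0.042 in normoxia and −0.14 within hypoxia. Others of the 8 fell within hypoxia in that fit. Of 14 eIF4F genes and regulators, 1 rose in MDA-MB-231 polysomal RNA in normoxia, and 3 fell and 1 rose within hypoxia, beside the shares of all genes given above. In MCF10A none was called in normoxia by edgeR, with 3 at an unadjusted p under 0.05, and 1 fell within hypoxia in polysomal and in total RNA. EIF4EBP1, the mTOR substrate that sequesters eIF4E, was among those that fell, by 1.48 (adjusted p = 0.000394). None of 13 initiation helpers, such as DHX29 and MCTS1, was called in polysomal RNA by edgeR in any of the 4 comparisons, and 1 fell in MCF10A within hypoxia without the 4 libraries. Without them 1 of the eIF4F genes and regulators fell and 1 rose in MCF10A polysomal RNA in normoxia, and 1 fell and 2 rose within hypoxia.

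**Figure D5:**
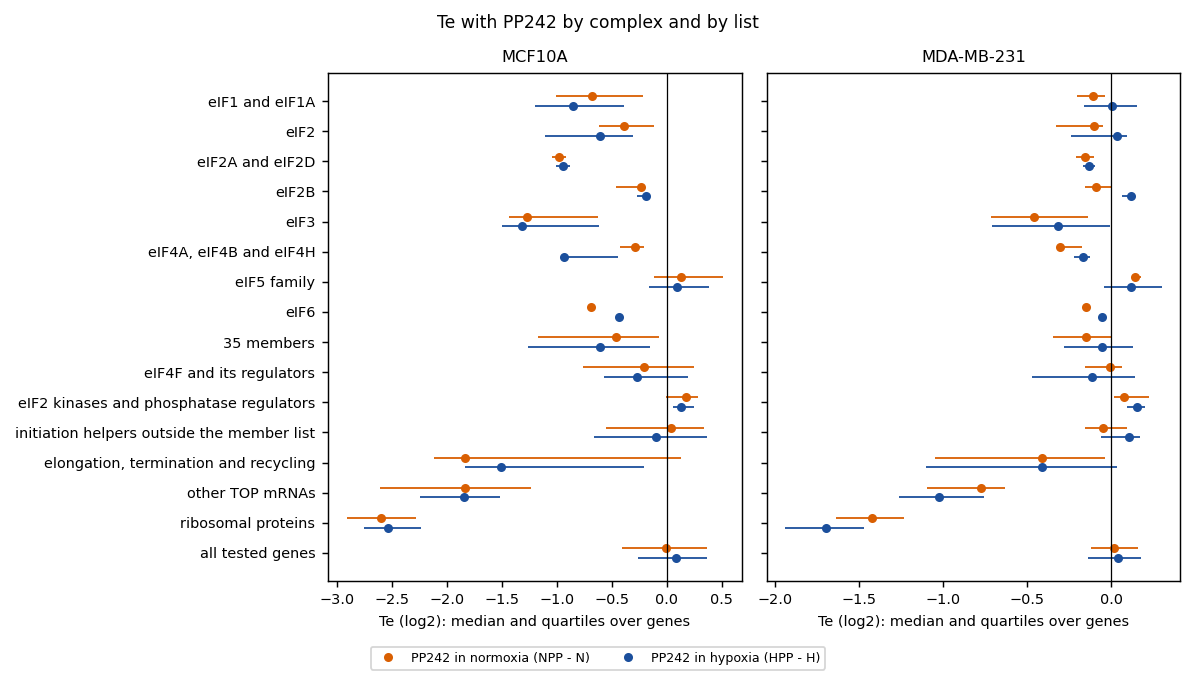
Median and quartiles of Te (log2) for the member complexes, the other lists of translation genes, ribosomal proteins (RP) and all tested genes, for each PP242 comparison and line. In MDA-MB-231 eIF3 lies at −0.46 and −0.32, between all tested genes at 0.02 and 0.04 and ribosomal proteins at −1.42 and −1.70.

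The difference between the lines was tested in a joint fit of all 32 libraries. No member differed between MDA-MB-231 and MCF10A in its Te with PP242, in normoxia or within hypoxia, by edgeR or DESeq2. Of all 14298 genes tested 0% differed by edgeR, and DESeq2 called 1, not a member, lower within hypoxia. An unadjusted p under 0.05 was seen for 0 and 2 members, beside 0.867% and 0.825% of all genes. The difference for EIF3F was 0.84 (95% interval −0.60 to 2.29) in normoxia and 0.80 (−0.65 to 2.24) within hypoxia. With 1 library left out it ran from 0.17 to 1.30 and from 0.18 to 1.24, and without the 4 MCF10A libraries that stood apart it was −0.27 and 0.0072. For EIF2S3 it was 1.13 within hypoxia (0.22 to 2.05), and in normoxia it ran from −0.078 to 0.54 with 1 library left out. Without the 4 the EIF2S3 difference was 0.75 in normoxia and 1.30 within hypoxia. No member was called in that fit either, with 1 in each comparison at an unadjusted p under 0.05 (3.13% and 3.09% of all genes), nor was any of 15059 genes. Calls made in one line and not in the other are therefore not shown to differ.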

How the data were processed

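Poly(A)-selected libraries were mapped by the authors with STAR and counted with RSEM, and they deposited the resulting expected counts, rounded to whole numbers and not normalised, for every annotated gene. The study's methods name GRCh38, whereas the submitters' processing notes name GRCh37, and no strand is stated, so reads of overlapping antisense genes cannot be told apart. Columns were matched to samples by the barcodes that the labels give. The members and lists were chosen with earlier results of these data known.

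In R 4.3.3 with edgeR 4.0.16, protein-coding genes were filtered by filterByExpr and scaled by TMM, and each line's 16 libraries were fitted as 8 groups, with 8 residual degrees of freedom. Contrasts went through the quasi-likelihood F test with Benjamini-Hochberg adjustment over all tested genes at 0.05. SE was the absolute log2 fold change over the square root of F. Printed CPM are TMM-scaled. CPM is a share of a library, so a change common to all polysomal mRNA does not show in it. Te was the interaction of fraction and treatment. MDA-MB-231 libraries had a biological coefficient of variation of 0.150 and MCF10A libraries one of 0.325. Replicate libraries differed by more than counting noise (chi-square per degree of freedom of 20.5 to 471). A two-sided permutation of 2 libraries against 2 cannot go below p = 0.333, so none is given.

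Values in every library were printed for the members with the lowest and highest mean Te in eIF2, eIF2B, eIF3, the eIF4A, eIF4B and eIF4H group and the eIF5 family, and for other members that were called or discussed, the latter after their values were seen. Of other lists, the 2 lowest and the highest by mean Te could be named. Reads of pseudogenes came to at most 2.27% of a member's own. Sequences came from RefSeq (GRCh38.p14) and gene coordinates from GENCODE on GRCh38, not from the count files. DESeq2 1.42.0, other scalings, filters, thresholds, blocks and fits, and leaving out each library were tried. A transcript length offset (span 0.3), the block within each fraction and leaving out 4 libraries were added after the data were seen.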

Additional observations from a re-analysis of the deposited data

Results flagged for a closer look

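EIF3A polysomal libraries lay on opposite sides in the lines with PP242 within hypoxia: both HPP libraries lay above both H libraries in MDA-MB-231 and below both in MCF10A. The MDA-MB-231 change was called by edgeR with all libraries and lost with any 1 of the 4 left out, and the MCF10A change of −0.61 (SE 0.68) was not called. The change was 1.10 higher (log2) in MDA-MB-231 than in MCF10A, and this difference was not tested. The first H polysomal library of MCF10A is among the 4 with steep length slopes, and without those 4 the MCF10A change was −0.84 in place of −0.61.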

How the results depend on the processing

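With 2 libraries per group the spread rests on 8 residual degrees of freedom, and calls near the threshold moved with the setting. The direction of EIF3F and EIF2S3 in Te stayed below 0 under every alternative run. Counts below are members called, against the counts in the report, and the causes of the changes were not tested. Where one is not given, it was within 1.5 times the reported count. The percentage after a count is the share of all genes called in the same way under that setting, for DESeq2 of those given an adjusted p, and is to be read beside the share in the report.

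DESeq2 called in MCF10A 2 (9.88%) in Te in normoxia, 4 (4.82%) in Te, 7 (7.2%) in polysomal and 3 (7.94%) in total RNA within hypoxia, and 5 (2.69%) in Te and 4 (20.9%) in total RNA for HPP against N. In MDA-MB-231 it called 3 (6.09%) in Te, 7 (2.83%) in polysomal and 1 (2%) in total RNA in normoxia, 3 (1.28%) in Te and 2 (7.89%) in total RNA within hypoxia, 6 (5.66%) in Te for HPP against N, 2 (2.08%) in polysomal RNA for hypoxia and 18 (19.6%) for polysomal against total RNA. DESeq2 size factors called 1 (0.503%) in MDA-MB-231 Te in normoxia and 13 (14.5%) for polysomal against total RNA. With a further limit of 1 on the size of the log2 fold change, MCF10A total RNA had 0 (3.49%) within hypoxia and 1 (13.1%) for HPP against N, and MDA-MB-231 had 0 (0.74%) polysomal in normoxia, 1 (2.04%) polysomal and 0 (0.992%) total within hypoxia, 4 (1.97%) polysomal and 0 (3.59%) total for HPP against N, and 0 (4.29%) for polysomal against total RNA. At an adjusted p under 0.10, MCF10A had 5 (5.93%) polysomal and 2 (6.5%) total within hypoxia and 5 (21.8%) total for HPP against N, and MDA-MB-231 had 2 (0.54%) in Te in normoxia, 2 (7.2%) in total RNA within hypoxia, 1 (1.24%) polysomal for hypoxia and 16 (21%) for polysomal against total RNA. With all gene classes MDA-MB-231 had 1 (0.459%) in Te in normoxia and 14 (15.8%) for polysomal against total RNA. With a filter of 1 read MCF10A total RNA had 0 (2.34%) within hypoxia and 1 (9.56%) for HPP against N, and MDA-MB-231 had 1 (0.556%) in Te in normoxia, 1 (11.7%) in total RNA for HPP against N and 10 (11.8%) for polysomal against total RNA.

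A culture block left 0 (0.429%) in Te within hypoxia and 1 (0.54%) in Te for HPP against N in MDA-MB-231. Scaling by library totals gave 0 (3.59%) in MCF10A total RNA within hypoxia and 7 (15.8%) for HPP against N, and in MDA-MB-231 1 (0.489%) in Te in normoxia, 7 (13.3%) in total RNA for HPP against N and 10 (14.9%) for polysomal against total RNA; the median Te of the members in MDA-MB-231 turned to 0.030 in normoxia and 0.057 within hypoxia, while the median over all genes went to 0.20 and 0.16. Fitting only the groups compared gave in MCF10A 0 (0.174%) polysomal and 0 (0%) total within hypoxia, 9 (5.94%) polysomal and 1 (9.57%) total for HPP against N, and in MDA-MB-231 1 (0.635%) in Te in normoxia, 0 (0.498%) in Te and 0 (1.1%) in total RNA within hypoxia and 2 (14.9%) in total RNA for HPP against N. The length offset gave in MCF10A 1 (2.85%) polysomal in normoxia, 1 (0.429%) in Te and 7 (7.91%) polysomal within hypoxia, 1 (0.589%) in Te and 6 (26.6%) in total RNA for HPP against N, 1 (2.12%) polysomal and 1 (3.94%) total for hypoxia and 1 (2.95%) for polysomal against total RNA, and in MDA-MB-231 1 (0.632%) in Te and 7 (1.75%) polysomal in normoxia, 4 (2.04%) polysomal for hypoxia and 19 (21%) for polysomal against total RNA. Without the 4 libraries that stood apart, MCF10A total RNA had 0 (4.82%) within hypoxia.

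Total and polysomal libraries of the same title number are described as fractions of 1 sample. Whether the replicate numbers mark a shared day or batch of treatments is not stated. The correlations between libraries of the same replicate number in their deviations from the group means ran from −0.641 to 0.778 in MCF10A (11 of 28 pairs over 0.1) and from −0.187 to 0.348 in MDA-MB-231 (19 of 28). Within MCF10A, pairs of total RNA groups ran from 0.283 to 0.778 and pairs of polysomal groups from −0.10 to 0.635, with 6 and 3 of 6 over 0.1, and total and polysomal pairs of the same treatment ran from −0.250 to 0.214 there and from 0.0024 to 0.348 in MDA-MB-231. The replicate block gave 12 (17.3%) in MDA-MB-231 for polysomal against total RNA. A replicate block within each fraction gave in MCF10A 1 (2.53%) polysomal in normoxia, 9 (8.42%) polysomal and 2 (8.79%) total within hypoxia, 4 (0.762%) in Te and 7 (26.5%) in total RNA for HPP against N and 12 (16.7%) for polysomal against total RNA, and in MDA-MB-231 1 (0.622%) in Te and 6 (1.95%) polysomal in normoxia, 1 (1.33%) polysomal for hypoxia and 17 (21.9%) for polysomal against total RNA.

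Among the members with the lowest or highest mean Te of their group, some Te values changed sign, most of them near 0 except in MCF10A. For EIF2B2 within hypoxia in MDA-MB-231 they were −0.0097 with DESeq2, −0.0095 with its size factors, −0.0067 with all gene classes, −0.043 with only the groups compared, −0.0033 with the replicate block, −0.0014 with the block within each fraction and −0.052 with the length offset, and with library totals 0.023 in normoxia. For EIF2B5 they were, in normoxia in MDA-MB-231, −0.0097 with DESeq2, −0.0095 with its size factors, −0.0090 with only the groups compared and −0.0031 with the length offset, and in MCF10A 0.034 with all gene classes, 0.020 with the culture block, 0.43 with library totals, 0.011 with the replicate block within each fraction, 0.064 with the length offset and 0.41 without the 4 libraries. For EIF2S1 they were −0.052 with DESeq2, −0.051 with its size factors, −0.20 with the length offset and −0.14 without the 4 libraries in MCF10A within hypoxia, −0.13 with the length offset in MCF10A in normoxia, and 0.0025 with all gene classes and 0.18 with library totals in MDA-MB-231 in normoxia. Library totals turned EIF4A3 to 0.17 in MDA-MB-231 in normoxia and EIF5A2 to 0.032 and 0.14 in MCF10A and 0.074 in MDA-MB-231 within hypoxia, each below the median over all genes under that scaling, which was 0.20 and 0.16 in MDA-MB-231 and 0.35 and 0.41 for MCF10A. The length offset turned EIF3A to −0.023 in MDA-MB-231 in normoxia. In MCF10A without the 4 libraries, EIF2B2 was 0.30 and 0.0089, EIF3A −0.32 and −0.17, EIF4A1 0.051 in normoxia and EIF5B −0.11 within hypoxia, and in all 15 of 35 changed sign in normoxia and 9 within hypoxia, among them EIF3G from −1.39 to 0.14 and EIF3I from −1.25 to 0.10.

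Leaving out each library in turn gave, in MCF10A, 0 to 2 polysomal calls (0.503% to 1.69% of all genes) and 0 total (0.529% to 1.01%) within hypoxia, and 3 to 15 polysomal (3.6% to 10.3%) and 0 to 1 total (4.26% to 9.54%) for HPP against N. In MDA-MB-231 it gave 0 to 1 polysomal (0.384% to 0.788%) and 0 to 1 in Te (0.0489% to 0.453%) in normoxia, 1 to 6 polysomal (1.49% to 4.91%), 0 to 2 total (0.167% to 5.53%) and 0 to 3 in Te (0.251% to 0.852%) within hypoxia, 6 to 11 polysomal (2.59% to 6.1%), 1 total (3.93% to 9.06%) and 1 to 3 in Te (0.419% to 0.719%) for HPP against N, and 0 to 5 (4.34% to 7.42%) for polysomal against total RNA. In MCF10A, Te then ran from −0.055 to 0.10 for EIF2S1 within hypoxia, from −1.25 to 0.10 for EIF2B2 and from −0.23 to 0.26 for EIF2B5 in normoxia, from −0.098 to 0.52 and from −0.011 to 0.58 for EIF4A3, from −0.67 to 0.40 and from −0.56 to 0.20 for EIF5A2, and from −0.061 to 1.50 for EIF5B within hypoxia. In MDA-MB-231 it ran from −0.081 to 0.074 and from −0.019 to 0.30 for EIF2S1, from −0.17 to 0.16 for EIF2B2 within hypoxia, from −0.047 to 0.097 for EIF2B5, from −0.036 to 0.14 for EIF3A and from −0.16 to 0.11 for EIF4A3 in normoxia, from −0.33 to 0.017 for EIF4A1 and from −0.18 to 0.078 for EIF5A2 within hypoxia, and the median over the members from −0.25 to −0.068 in normoxia and from −0.23 to 0.069 within hypoxia. The MCF10A median ran from −0.68 to −0.15 and from −0.91 to −0.46. The ranges of single genes above cover only members with the lowest or highest mean Te of their group. Others crossed 0 too, such as EIF6 from −1.22 to 0.16, EIF2B3 from −0.59 to 0.28 and EIF4H from −0.64 to 0.13 in MCF10A in normoxia. A group left with 1 library was assumed to vary like the others. The culture block, the fit to only the groups compared and the length offset were not run for the difference between lines.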
